A study of Arabidopsis thaliana with 30 samples.

Results

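Transcripts of differentiated phloem nuclei were compared with those of the other nuclei of the same stems in the APLpro:H4-GFP line of Arabidopsis (Col-0). The plants were homozygous for a fusion of histone H4 and GFP placed between the promoter and terminator regions of APL, so every nucleus of both populations carried the reporter and the populations differed in whether it fluoresced. Members were chosen by line alone: the 6 libraries of this line, of 30 in the series, namely 3 of GFP-positive nuclei (replicates 13, 14 and 15) and 3 of GFP-negative nuclei (replicates 43, 44 and 45). Nuclei came from the second bottom-most internode of the inflorescence stem of plants moved from short to long days, and 15000 nuclei were sorted for each library. The GFP-negative population is a mixture of all tissues in which the APL promoter was not active or was too weak to lift a nucleus over the sorting gate. The labels do not say which plants or preparations the libraries came from, so p-values measure the spread between these libraries. Where more preparations than needed existed, the study had picked those with the clearest GFP contrast, and it left replicate 15 out of its own comparison among tissues as an outlier.

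The phloem of the stem carries sugars, amino acids and signals from leaves to growing organs. Its conducting cells, the sieve elements, lose their nucleus as they mature and are kept alive by companion cells, which load sucrose and supply proteins through plasmodesmata. APL, a transcription factor of the MYB coiled-coil class, is required for phloem identity and is active in differentiating sieve elements and in companion cells. Because mature sieve elements have no nucleus, nuclei sorted by APL promoter activity come from companion cells and from sieve elements that are still differentiating.

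The GFP-positive libraries held 16447718, 10005193 and 18335693 reads on genes and the GFP-negative ones 2914848, 1723839 and 4345717, so the negative libraries were the shallower ones without overlap. Reads on the GFP sequence, kept out of all other values, numbered 401, 327 and 949 in the positive libraries and 10, 9 and 77 in the negative ones. In counts-per-million (CPM) of all gene reads this was 24.4, 32.7 and 51.8 against 3.43, 5.22 and 17.7, a mean of 36.3 ± 14.04 against 8.79 ± 7.78 (SD, n = 3). The reporter was higher in every positive library, with GFP-negative replicate 45 nearest to them (exact two-sided permutation test, p = 0.1, the smallest value that 3 against 3 libraries allow). Nuclei were sorted by GFP, and spare preparations were picked by GFP contrast, so this order was largely fixed beforehand. GFP-positive replicate 15 also stood apart in other ways: pseudogenes took 3.49, 4.74 and 6.43% of reads in replicates 13, 14 and 15, against 2.00, 2.48 and 4.095% in the negative libraries, and the 100 most abundant genes took 12.8, 9.93 and 5.48% against 16.8, 15.99 and 11.9%. Over 31181 genes, GFP-negative replicate 45 had Spearman correlations of 0.898, 0.902 and 0.871 with GFP-positive replicates 13, 14 and 15. With GFP-negative replicates 43 and 44 it had 0.855 and 0.865. Replicates 43 and 44 had 0.754 to 0.865 with the positive libraries and 0.857 with each other. Values among the positive libraries were 0.854 to 0.905, so likeness over all genes did not separate the populations.

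APL itself reached 59.8, 75.5 and 82.3 CPM, here and from now on scaled by edgeR's TMM factors, in GFP-positive replicates 13, 14 and 15 and 18.7, 36.3 and 47.2 CPM in GFP-negative replicates 43, 44 and 45. All 3 positive libraries were above all 3 negative ones, but the difference did not pass the test across genes (log2 fold change 1.08 ± 0.38 SE, unadjusted p = 0.0122, adjusted p = 0.492, edgeR quasi-likelihood F test with Benjamini-Hochberg adjustment). Since the reporter carries APL promoter and terminator regions, reads from it that fall on the APL gene model cannot be told apart from those of the endogenous gene.

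Of 31181 genes tested, 31 were higher in GFP-positive nuclei at an adjusted p of 0.05, which is 0.0994% of them, and 0 were lower (edgeR quasi-likelihood F test). At an unadjusted p under 0.05, 1500 were higher and 1462 lower, and in the lower direction DESeq2 called 47 and limma voom 2. All 31 encode proteins, while protein-coding genes made up 82.03% of the genes tested. They include the mitochondrial glutamate dehydrogenase GDH3, the companion cell proteins NAKR1 and PP2-A1, the receptor kinase XIP1, the potassium channel KAT1, the cytokinin synthesis enzyme IPT5 and the transcription factors WRKY69 and KAN2. Levels differed 4.13- to 22.4-fold, with a median log2 difference of 3.13 against 0.09 over all genes tested. In each of the 31 genes all positive libraries were above all negative ones, a pattern found in 10.7% of all genes, which restates the call since it comes from the same 6 libraries. In bulk libraries such as these, fewer nuclei of a type and less RNA per nucleus cannot be told apart.

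**Figure D1:**
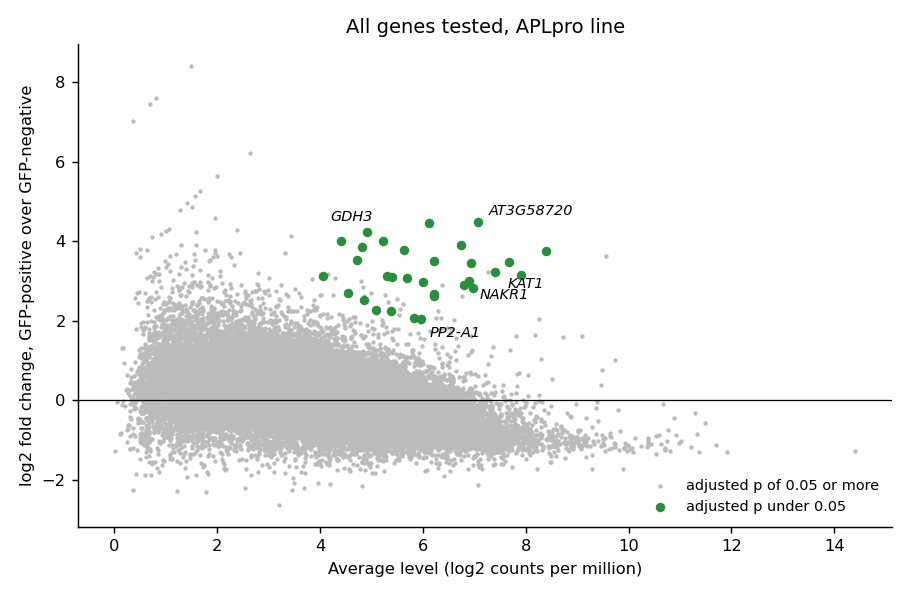
Each point is 1 of 31181 genes, with its average level in log2 CPM on the x axis and the log2 fold change of GFP-positive over GFP-negative nuclei on the y axis. The 31 green genes passed the adjusted p of 0.05 and lie between log2 fold changes of 2.05 and 4.48, at average levels of 4.07 to 8.40 log2 CPM.

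The number of genes passing the test depended on single libraries. It was 19 without GFP-positive replicate 13, 14 without replicate 14 and 72 without replicate 15, and 7, 0 and 9 without GFP-negative replicates 43, 44 and 45. Without replicate 44, where no gene passed and 2142 had an unadjusted p under 0.05, the log2 fold changes of the 31 genes still ranged from 2.07 to 4.72, with adjusted p-values from 0.0546 to 0.526. DESeq2, the study's tool, called all 31 among 115 higher genes, or 0.403% of the genes it tested. Just inside the threshold were UMAMIT28 and KAN2 (adjusted p = 0.0449 and 0.0449), and just outside it were a remorin family gene, AT4G00670, and the GRAS factor HAM4 (adjusted p = 0.0513 and 0.0532).

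GDH3 had the lowest p-value. It encodes a subunit of mitochondrial glutamate dehydrogenase, the enzyme that releases ammonium from glutamate and can also run in reverse. Its level was 63.2, 45.1 and 57.2 CPM in the positive libraries and 2.61, 3.36 and 2.91 CPM in the negative ones, where it rested on 6, 5 and 13 reads. The 18.8-fold difference (log2 4.23 ± 0.42 SE, adjusted p = 0.00132) was larger than the spread within either population. The other members of its small family did not pass. GDH1 had 14.04, 17.7 and 15.2 CPM against 11.3, 12.8 and 7.16 CPM, without overlap but with a log2 fold change of 0.61 ± 0.48 and an adjusted p of 0.656. GDH2 had 84.7, 99.5 and 51.6 CPM against 90.1, 125 and 73.4 CPM, overlapping groups with a log2 fold change of -0.29 ± 0.38 (adjusted p = 0.808). The differences between the family members themselves were not tested.

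The 250 bases before each gene's start were read from the RefSeq TAIR10.1 genome and searched on both strands for GNATATNC, the palindromic site bound by MYB coiled-coil factors such as APL, and for AAAG, the core bound by DOF factors, which act early in phloem. The first occurred in 2 of the 31 windows, 6.45%, against 5.24% of 37049 windows of all genes. AAAG occurred in 31 of 31, against 97.5% of all windows. The 2 windows with GNATATNC are those of GDH3 and UMAMIT28, shown 5′ to 3′ as read along the gene's strand with the match in capitals. For GDH3 this is chr3:1006530-1006779 on the plus strand, with the match starting 231 bases before the gene, and for UMAMIT28 it is chr1:41018-41267 on the minus strand, with the match starting 74 bases before it.
GDH3: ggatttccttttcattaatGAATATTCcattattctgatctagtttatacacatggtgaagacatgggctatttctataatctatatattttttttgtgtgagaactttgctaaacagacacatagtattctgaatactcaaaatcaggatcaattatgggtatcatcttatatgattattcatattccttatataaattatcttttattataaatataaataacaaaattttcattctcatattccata
UMAMIT28: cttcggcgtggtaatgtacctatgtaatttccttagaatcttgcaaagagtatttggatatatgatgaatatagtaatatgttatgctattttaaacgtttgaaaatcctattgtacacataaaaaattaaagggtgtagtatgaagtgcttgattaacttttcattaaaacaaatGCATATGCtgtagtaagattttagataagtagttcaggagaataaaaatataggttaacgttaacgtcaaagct
A match is a run of letters and no evidence of binding.

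Another group came from an array of 5 neighbouring genes on chromosome 4, AT4G15660 to AT4G15700. RefSeq annotates them only as thioredoxin superfamily proteins, which names a superfamily and not the function of each gene. The first and the last of the array were among the 12 genes with the lowest p-values. AT4G15660 had 54.8, 39.3 and 57.6 CPM in the positive and 3.48, 2.69 and 4.03 CPM in the negative libraries (log2 fold change 3.84 ± 0.42 SE, adjusted p = 0.00142). AT4G15700 had 97.8, 53.2 and 55.1 CPM against 1.31, 4.03 and 6.71 CPM (log2 fold change 4.00 ± 0.51 SE, adjusted p = 0.00515). The 3 genes between them, looked up after their neighbours' values were seen, did not pass the test with edgeR. AT4G15670 had 9.94, 6.72 and 5.27 CPM against 0, 2.02 and 0.224 CPM (adjusted p = 0.404, and with DESeq2 adjusted p = 0.0462) and AT4G15680 had 4.04, 7.19 and 2.08 CPM against 0, 1.34 and 0 CPM (adjusted p = 0.466), both without overlap between the groups. AT4G15690 overlapped, with 12.6, 6.91 and 8.21 CPM against 9.58, 8.73 and 8.06 CPM (adjusted p = 0.97). Close copies lose reads when only unique hits are kept, so the single values of this array are uncertain.

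The windows before the pair that passed show how they differ in the DOF core, with AAAG and its complement CTTT in capitals. AT4G15660 (chr4:8925321-8925570, plus strand) holds 4 matches and AT4G15700 (chr4:8937108-8937357, plus strand) 12, beside a median of 4 over all windows.
AT4G15660: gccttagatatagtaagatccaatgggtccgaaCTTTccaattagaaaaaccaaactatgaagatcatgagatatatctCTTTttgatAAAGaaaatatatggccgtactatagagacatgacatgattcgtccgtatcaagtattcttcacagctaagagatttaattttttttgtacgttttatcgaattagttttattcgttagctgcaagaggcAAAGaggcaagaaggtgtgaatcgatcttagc
AT4G15700: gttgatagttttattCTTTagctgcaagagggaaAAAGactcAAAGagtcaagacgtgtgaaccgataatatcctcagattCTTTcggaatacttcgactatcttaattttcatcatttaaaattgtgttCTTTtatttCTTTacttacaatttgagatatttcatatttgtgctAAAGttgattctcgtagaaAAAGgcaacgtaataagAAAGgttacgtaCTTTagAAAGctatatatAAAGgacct
Neither window holds GNATATNC.

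AT3G58720, a RING/U-box protein of the kind that marks proteins with ubiquitin, had the largest fold change of the 31. It reached 389, 219 and 157 CPM in the positive and 10.4, 15.4 and 8.95 CPM in the negative libraries (22.4-fold, log2 4.48 ± 0.52 SE, adjusted p = 0.00222). UBC29, a ubiquitin-conjugating enzyme, had 97.5, 73.4 and 50.7 CPM against 9.14, 10.7 and 6.49 CPM (8.62-fold, log2 3.11 ± 0.40 SE, adjusted p = 0.00518). AT4G00780, a TRAF-like protein, had 166, 108 and 132 CPM against 13.1, 10.7 and 12.1 CPM (11.3-fold, log2 3.49 ± 0.39 SE, adjusted p = 0.00142). The groups were separated in all 3 genes, and the spread among positive libraries was widest for AT3G58720. The transcription factor gene WRKY69, also higher, overlaps AT3G58720 on the opposite strand. The overlap covers 25.7% of AT3G58720, and 35.8% of WRKY69 lies opposite another gene, so reads of this stretch cannot be assigned without strand. Of the 31 genes, 7 or 22.6% partly overlap a gene on the other strand, against 20.3% of all genes tested.

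XIP1, a leucine-rich repeat receptor kinase known for keeping xylem-like cells out of the phloem, had 155, 112 and 115 CPM against 23.5, 18.1 and 18.4 CPM (6.37-fold, log2 2.67 ± 0.37 SE, adjusted p = 0.00846). The gap between the populations was wider than the range within either. FIP2, a protein with a potassium channel tetramerization domain, had 98.2, 55.8 and 52.3 CPM against 5.22, 8.73 and 9.62 CPM (8.66-fold, log2 3.11 ± 0.42 SE, adjusted p = 0.0064). Its downstream neighbour on the same strand, AT5G55010, begins 22 bases after it and encodes an uncharacterized protein. AT5G55010 had 45.8, 25.2 and 43.9 CPM against 3.05, 1.34 and 2.46 CPM (16.1-fold, log2 4.00 ± 0.50 SE, adjusted p = 0.0047). In the negative libraries it rested on 7, 2 and 11 reads, so the size of its fold change is uncertain. In both neighbours replicate 13 was the highest library.

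The remaining 3 of the 12 encode proteins of little known function. AT4G16008, an uncharacterized protein, had 147, 111 and 135 CPM against 2.61, 7.39 and 7.61 CPM (22.04-fold, log2 4.46 ± 0.46 SE, adjusted p = 0.00132). AT1G24575, annotated as similar to DEAD-box RNA helicases, had 119, 63.04 and 90.4 CPM against 6.53, 8.06 and 5.60 CPM (13.8-fold, log2 3.79 ± 0.41 SE, adjusted p = 0.00142). AT5G39330, a putative transmembrane protein, had 124, 88.7 and 123 CPM against 9.58, 12.1 and 19.9 CPM (7.90-fold, log2 2.98 ± 0.40 SE, adjusted p = 0.0064). In all 3 every positive library was above every negative one.

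**Figure D2:**
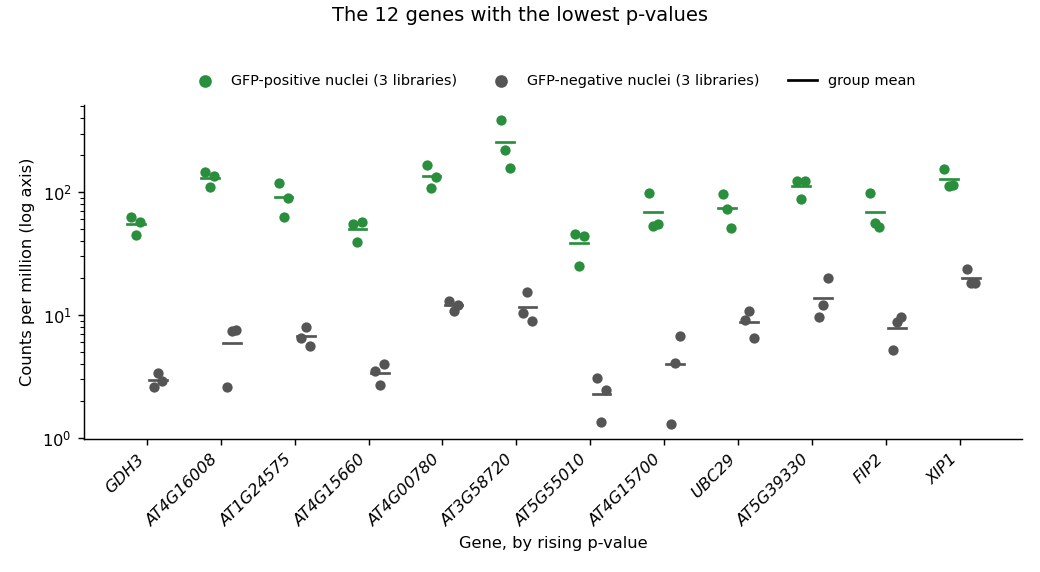
CPM on a log axis for the 12 genes with the lowest p-values, with 1 point per library and a bar at each group mean, green for the 3 GFP-positive and grey for the 3 GFP-negative libraries. The groups are separated in every gene, for example 45.1 to 63.2 against 2.61 to 3.36 CPM for GDH3.

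The other 19 genes included NAKR1 and PP2-A1 of the companion cell list. NAKR1, a metal-binding protein of companion cells needed for long-distance transport, had 268, 189 and 171 CPM against 23.9, 30.9 and 24.2 CPM (7.99-fold, log2 3.00 ± 0.42 SE, adjusted p = 0.00846). AT5G27690, of the same heavy metal transport superfamily in RefSeq, was higher 14.96-fold (adjusted p = 0.00846). PP2-A1, a lectin abundant in phloem sap, had 109.6, 84.2 and 102 CPM against 21.8, 31.6 and 19.2 CPM (4.13-fold, log2 2.05 ± 0.36 SE, adjusted p = 0.0449), the smallest fold change of the 31. PP2-A10 was higher 8.75-fold (adjusted p = 0.0347), although 68.2% of it lies opposite another gene. KAT1, an inward potassium channel best known from guard cells, was higher 9.33-fold (adjusted p = 0.0367), and UMAMIT28, of a family of amino acid transporters, 6.52-fold (adjusted p = 0.0449).

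Regulators and hormone enzymes were also among the 19. IPT5, which catalyses the first step of cytokinin synthesis, had a log2 fold change of 3.06 ± 0.51 SE (adjusted p = 0.0343), with GFP-positive replicate 15 the highest at 135 CPM and replicates 13 and 14 at 71.04 and 65.7 CPM. WRKY69 was higher 7.52-fold (adjusted p = 0.0292). KAN2, a KANADI factor that specifies the abaxial side of organs, was higher 4.23-fold (adjusted p = 0.0449). Enzymes of carbon and lipid metabolism included PWD, higher 7.07-fold, the lipase-like TLL1, higher 8.83-fold, and NUDT12, a nudix hydrolase, higher 10.97-fold (adjusted p = 0.0162, 0.0162 and 0.0114). PWD is the RefSeq symbol of AT4G24450, with the product phosphoglucan, water dikinase, and other sources may name this locus otherwise. CYP81F3, a cytochrome P450 of a subfamily that modifies indole glucosinolates, was higher 4.81-fold (adjusted p = 0.0259).

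The last 6 genes are known by locus only. AT2G36650 (CHUP1-like), AT2G46630 (serine/arginine repetitive matrix protein), AT5G54660 (HSP20-like chaperone), AT5G64687 (annotated as ubiquinol oxidase), AT1G64370 (filaggrin-like) and AT1G37113 (uncharacterized) had fold changes from 4.70 for AT1G37113 to 13.6 for AT2G46630. AT2G46630 was the most abundant of the 31, with 958, 632 and 292 CPM in the positive and 42.2, 63.1 and 34.02 CPM in the negative libraries. It was also among the most variable within the positive population. Over the 31 genes, replicate 13 was the highest positive library for 25 and replicate 15 for 6. Summed over these genes, the level was 6131, 4283 and 3621 CPM in the positive and 433, 558 and 513 CPM in the negative libraries.

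Of 21 genes of sieve element differentiation, 20 were tested and 0 passed (edgeR), 0 passed with DESeq2 and 0 with limma voom. By edgeR, 6 had an unadjusted p under 0.05 in the higher direction and 2 in the lower direction, where 4.81% and 4.69% of all genes did. The median log2 fold change was 0.38, and 13 of 20 values were above 0, as were 55.5% of all genes. SEOR2, a filament protein that plugs sieve tubes after wounding, had 136, 107 and 44.3 CPM against 33.1, 27.5 and 36.7 CPM (log2 fold change 1.55 ± 0.42 SE, unadjusted p = 0.00219, adjusted p = 0.382). Its positive libraries were all above the negative ones, with replicate 15 the nearest, and without replicate 15 the gene passed (log2 fold change 1.90, adjusted p = 0.0171). CALS7, the callose synthase of sieve plates, had a log2 fold change of 1.24 ± 0.43 (adjusted p = 0.488), and NAC086, a factor of nuclear breakdown in sieve elements, one of 0.87 ± 0.51 (adjusted p = 0.574). SMXL5, whose promoter marks the neighbouring distal cambium and differentiating phloem cells, had 73.4, 44.6 and 51.6 CPM against 79.7, 75.9 and 67.8 CPM (log2 fold change -0.40 ± 0.34, adjusted p = 0.684). CLE45, a peptide gene, had 0 reads in all 6 libraries and was not tested.

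Of 6 DOF factors of the phloem, 0 passed with edgeR, DESeq2 or limma voom. At an unadjusted edgeR p under 0.05, 1 was higher, where 4.81% of all genes were. That gene, DOF1.1, had 91.7, 61.2 and 83.7 CPM against 33.5, 14.1 and 49.2 CPM (log2 fold change 1.26 ± 0.41 SE, unadjusted p = 0.00858, adjusted p = 0.476). Its groups did not overlap. PEAR1 and PEAR2, mobile factors of early phloem cells, had log2 fold changes of 0.09 ± 0.56 and 0.07 ± 0.36. The list median was 0.08, against 0.09 over all genes.

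Of 17 genes of companion cells and phloem transport, NAKR1 and PP2-A1 passed, where 0.0994% of all genes did, and 7 had all positive libraries above all negative ones, where 10.7% of all genes did. None was called lower by edgeR, DESeq2 or limma voom, and 0 had an unadjusted edgeR p under 0.05 in that direction. With DESeq2 3 were called higher, where 0.403% of all genes it tested were. With limma voom 1 was called higher, PP2-A1 being lost there. The median log2 fold change was 0.67, and 13 values were above 0, as were 55.5% of all genes. The list's summed level was 2856, 2059.5 and 1658 CPM in the positive and 1191, 1129.9 and 928 CPM in the negative libraries, without overlap. AHA3, the proton pump that energizes sucrose loading, had 161, 103 and 149 CPM against 46.2, 24.9 and 44.3 CPM (log2 fold change 1.83 ± 0.39 SE, unadjusted p = 0.000339, adjusted p = 0.192) and passed with DESeq2 (adjusted p = 0.00341). PP2-A2, the neighbour of PP2-A1, had 19.2, 14.7 and 13.4 CPM against 2.18, 8.06 and 4.25 CPM (log2 fold change 1.76 ± 0.59, unadjusted p = 0.00923, adjusted p = 0.486). SUC2, the sucrose loader of companion cells, had 539, 360.2 and 363 CPM against 254, 216 and 143 CPM, separated but not past the test (log2 fold change 1.04 ± 0.50, adjusted p = 0.526). The potassium channel AKT2 and the oligopeptide transporter OPT3 had values below 0, -0.52 ± 0.39 and -0.51 ± 0.42 (adjusted p = 0.646 and 0.668). FT, the mobile flowering signal, had 21.5, 39.3 and 40.05 CPM against 27.9, 30.9 and 30.4 CPM, with overlapping groups (log2 fold change 0.18 ± 0.36, adjusted p = 0.879). The sieve element, DOF and companion cell lists together summed to 4237, 3193 and 2601 CPM in the positive and 1992, 1976 and 1852 CPM in the negative libraries. This sum was higher in every GFP-positive library, but the DOF list alone overlapped, with 225, 175 and 185 CPM against 131, 124 and 178 CPM.

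The family of PP2 lectins and related F-box proteins was looked up after PP2-A1 and PP2-A10 had been seen. Of 28 genes with a PP2 symbol, 26 were tested, 2 passed, where 0.0994% of all genes did, and the median log2 fold change was 0.34. DESeq2 called 3 of the family higher, where it called 0.403% of all genes it tested higher. With limma voom 0 were called, so that both edgeR calls were lost there. PP2-B1 had 163, 122 and 82.3 CPM against 31.3, 24.9 and 30.7 CPM, without overlap (log2 fold change 2.07 ± 0.38 SE, adjusted p = 0.0626, and with DESeq2 adjusted p = 0.000252). PP2-A11 had 36.7, 26.6 and 11.99 CPM against 54.9, 49.04 and 42.7 CPM, all positive libraries lower than the negative ones (log2 fold change -0.96 ± 0.40, adjusted p = 0.507). The family therefore held values in both directions.

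The reporter encodes histone H4, so the 8 H4 genes were examined too. By edgeR 0 passed, and 1 had an unadjusted p under 0.05 in the lower direction, where 4.69% of all genes did. With DESeq2 or limma voom 0 passed. AT5G59690, the H4 gene named by the study, had 30.1, 20.1 and 8.49 CPM against 37.01, 22.2 and 18.6 CPM, with overlapping groups (log2 fold change -0.40 ± 0.48 SE, adjusted p = 0.78).

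No gene passed in the lower direction with edgeR, although 1462 genes, 4.69%, had an unadjusted p under 0.05 there. DESeq2 called 47 lower genes (0.165% of those it tested), all with edgeR log2 fold changes below 0, and limma voom with quality weights called 2. The 6 genes with the lowest p among those with an average of at least 4 log2 CPM had adjusted p-values from 0.212 to 0.257. RLP32, a receptor-like protein of immune perception, had 57.4, 54.4 and 51.8 CPM in the positive and 177, 222 and 146 CPM in the negative libraries (log2 fold change -1.73 ± 0.38 SE). PUB18, a ubiquitin ligase of the plant U-box class, had 15.5, 9.43 and 6.29 CPM against 79.7, 28.2 and 31.8 CPM (log2 fold change -2.17 ± 0.48). PROPEP1, the precursor of a danger signal peptide, had 38.1, 37.6 and 18.04 CPM against 106, 137 and 74.8 CPM (log2 fold change -1.76 ± 0.40). The groups did not overlap in any of these, where 7.08% of all genes had all positive libraries below all negative ones. These genes were picked by low p in the same 6 libraries, so this order is no further support. The other 3, the efflux carrier AT5G52050, the oxygenase AT3G19010 and the metalloendopeptidase-like AT3G57460, had log2 fold changes of -1.58 ± 0.35, -1.49 ± 0.34 and -1.57 ± 0.36. All 6 passed with DESeq2, with adjusted p-values from 4.41e-05 to 0.0159.

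Markers of the other stem tissues had mostly lower values in GFP-positive nuclei. Of 63 markers 62 were tested, 54 had a log2 fold change below 0, against 44.5% of all genes, and the median was -0.998. The gene SMXL5 is counted both here, as a distal cambium marker, and in the sieve element list. In 13 of them all positive libraries were below all negative ones, where 7.08% of all genes had this order. None passed with edgeR, DESeq2 or limma voom. At an unadjusted edgeR p under 0.05, 15 were lower and 0 higher, where 4.69% and 4.81% of all genes were. Their summed level was 15579, 11951 and 2701 CPM in the positive and 30367, 19970.2 and 14961 CPM in the negative libraries. The groups thus overlapped slightly, since replicate 13 was above replicate 45, and replicate 15 was far below every other library.

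The lists differed in size of the difference. Green cortex markers, light-harvesting and Rubisco small subunit genes, had values below 0 in 21 of 21 tested (median -1.04), and their sum was 6451, 4434 and 809 CPM against 11203, 8088 and 5295 CPM. Vessel and secondary wall markers such as CESA4 and IRX9 had values below 0 in 10 of 12 (median -1.09), with a sum of 3696, 2347 and 451 CPM against 6263, 4927 and 3078 CPM. Epidermis markers had values below 0 in 6 of 7 (median -1.12). Among these LTP1, a lipid transfer protein of the epidermis, had 90.1, 52.8 and 7.70 CPM against 348, 197 and 118 CPM (log2 fold change -2.14 ± 0.68 SE, unadjusted p = 0.00706, adjusted p = 0.466). The study did not find LTP1 reads enriched in nuclei sorted by the LTP1 promoter, which limits LTP1 as an epidermis marker here. FDH, an enzyme of cuticular wax, had 38.98, 43.8 and 24.4 CPM against 100.1, 96.1 and 48.6 CPM (log2 fold change -1.19 ± 0.38, unadjusted p = 0.00744, adjusted p = 0.466). In both genes the groups were separated, and replicate 15 was the lowest library.

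The other marker lists had medians of -0.61 for phloem cap and glucosinolate cells, -0.61 for proximal cambium, -0.58 for fibers, -0.58 for distal cambium, -0.32 for pith and -0.25 for starch sheath. Values below 0 were found for 6 of 8, 3 of 4, 2 of 2, 2 of 2, 2 of 3 and 2 of 3 genes in this order. The phloem cap list, with the myrosinases TGG1 and TGG2, summed to 4011, 4034 and 785 CPM in the positive and 10254, 4696 and 5054 CPM in the negative libraries. LHCB1.5 had 0 reads in all 6 libraries and was not tested, while every other marker of the other tissues had reads in all 6. Reads of other tissues' markers were thus present in both populations, and their part in the differences above was not tested.

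**Figure D3:**
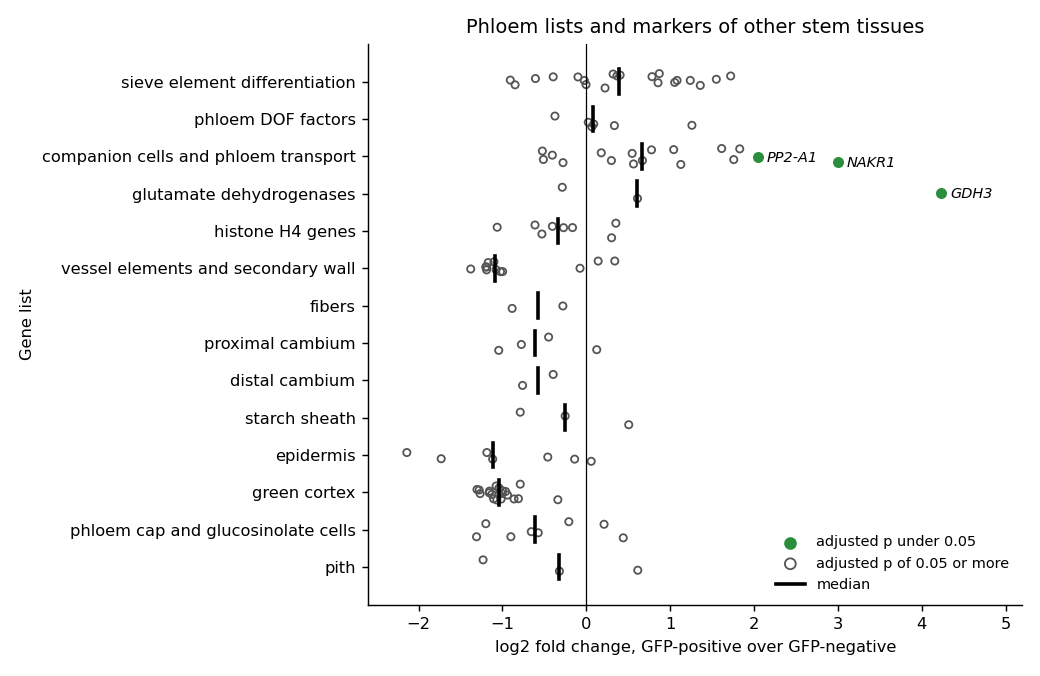
Log2 fold change of GFP-positive over GFP-negative nuclei on the x axis for each tested member of the phloem, glutamate dehydrogenase and histone H4 lists and of the markers of other stem tissues, with a bar at each list's median. NAKR1, PP2-A1 and GDH3 are the filled points past an adjusted p of 0.05, and all 21 green cortex markers lie to the left of 0.

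The list values depended on replicate 15. Without it the median of the green cortex list went from -1.04 to -0.60, that of the vessel list from -1.09 to -0.62 and that of the epidermis list from -1.12 to -0.77, while the companion cell list kept a median of 0.61 and the sieve element list one of 0.36. Of the 72 genes called without it, 0.242% of those tested then, 30 were among the 31, and all 42 others were higher too. Chosen after their values were seen, these included transporters: the sugar exporter SWEET13 (log2 fold change 3.28, adjusted p = 0.00128), the zinc transporter ZIP1 (2.67, 0.000691), the amino acid permeases AAP5 (2.16, 0.0101) and AAP4 (1.96, 0.0228), and the phosphate transporter PHT1;2 (2.95, 0.0359). SWEET13 had 81.4, 51.2 and 14.7 CPM in the positive and 6.10, 4.03 and 9.40 CPM in the negative libraries. With replicate 15 in the fit its adjusted p was 0.126.

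The same sort had been made in 2 other lines, with 3 libraries of each population and none shared with the APLpro line. GFP-positive nuclei of the SMXL5pro line mark the distal cambium and differentiating phloem cells, so this line too is phloem-related. Those of the NST3pro line mark fibers. In the SMXL5pro line 18 of the 31 genes had a log2 fold change above 0, as did 47.2% of all genes, and their median was 0.16. None passed the test there with edgeR (lowest adjusted p = 0.581), and 3 were higher and 1 lower at an unadjusted p under 0.05, where 2.96% of all genes were higher. The highest value was that of AT4G15660, 2.34 ± 0.70 SE, a ratio of low levels. Scaled with all libraries of the series, its mean was 3.93 CPM in SMXL5pro GFP-positive and 0.701 CPM in SMXL5pro GFP-negative nuclei. In the NST3pro line 3 of 31 values were above 0, where 50.5% of all genes were, and 28 below, with a median of -0.61, and 5 were lower at an unadjusted p under 0.05, where 4.58% of all genes were. None passed there either (lowest adjusted p = 0.813).

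Tested directly as a difference between lines, the log2 fold change was larger in the APLpro than in the SMXL5pro line for 2 genes, TLL1 (3.03 ± 0.43 SE, adjusted p = 0.0257) and AT3G58720 (4.70 ± 0.70 SE, adjusted p = 0.0259), 0.00627% of the genes tested. For the other 29 the difference from the SMXL5pro line did not pass. Against the NST3pro line it was larger for 92 genes, 0.288%, of which 19 were among the 31, including AT3G58720 (6.34 ± 0.73 SE, adjusted p = 0.000435), NAKR1 (4.58 ± 0.55 SE, adjusted p = 0.000537), PP2-A1 (3.28 ± 0.63 SE, adjusted p = 0.0249) and GDH3 (4.75 ± 1.05 SE, adjusted p = 0.047). KAN2, IPT5 and UMAMIT28 were among the 12 that did not pass. The APLpro libraries that called the 31 also enter both contrasts, so the overlap with the 31 and its direction are no independent support. A further 47 genes, 0.147%, had the smaller log2 fold change in the APLpro line, none of them among the 31, which makes 139 in both directions. The counts in both directions rested on single libraries. The first was 2 or 3 without NST3pro GFP-positive replicates 1 and 3, APLpro GFP-positive replicate 15 or NST3pro GFP-negative replicate 48. It was 4 without NST3pro replicates 2 or 46, 7 without replicate 47, 1 without SMXL5pro GFP-negative replicate 40, and 0 without any other library of the SMXL5pro and APLpro lines, where 282 to 1183 genes had an unadjusted edgeR p under 0.05 and DESeq2 on all 18 libraries called 21. The second, 139 with all libraries, was 1556, 700 and 652 without NST3pro replicates 46, 48 and 2, 13, 25 and 88 without APLpro GFP-negative replicates 43, 44 and 45, and 98, 35 and 46 without APLpro GFP-positive replicates 13, 14 and 15. It was 49 to 77 without 1 of the SMXL5pro GFP-positive libraries (replicates 10 to 12) and 80 to 92 without 1 of the GFP-negative ones (replicates 40 to 42).

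**Figure D4:**
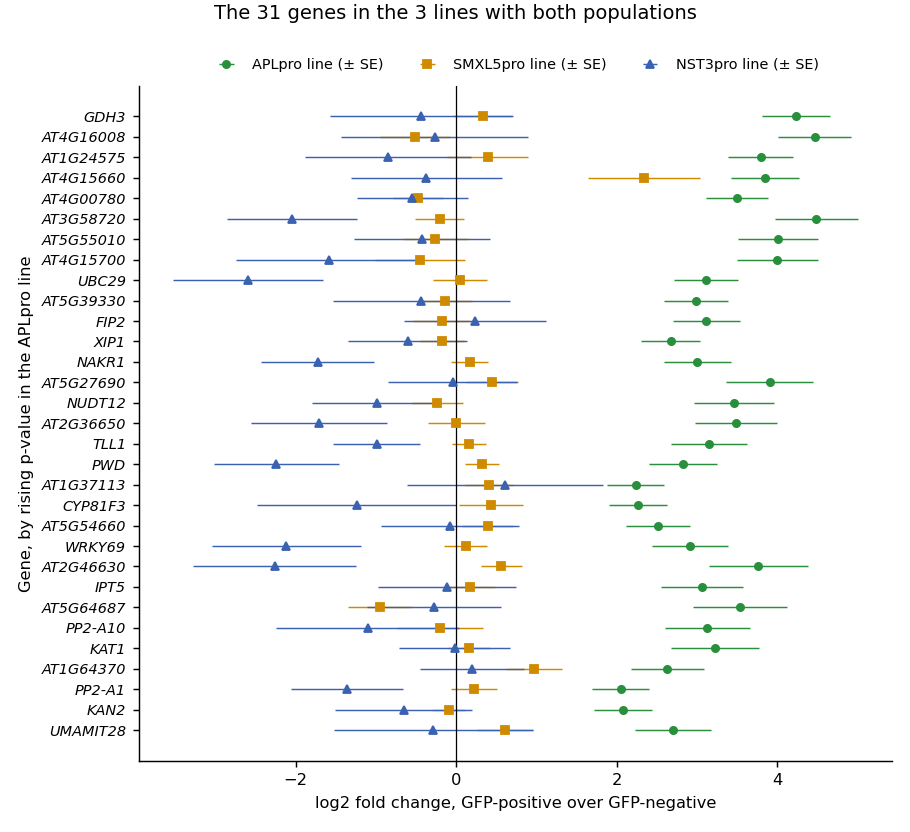
Log2 fold change of GFP-positive over GFP-negative nuclei with its SE for the 31 genes in the APLpro (circles), SMXL5pro (squares) and NST3pro (triangles) lines. The APLpro values lie between 2.05 and 4.48, and the SMXL5pro value comes nearest for AT4G15660, at 2.34, a ratio of low levels in that line.

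Levels were last set beside those of the other sorted populations, with all 30 libraries scaled together, so the values are not those of the 6-library scale above. The APLpro GFP-positive nuclei had the highest mean of the 7 GFP-positive populations for all 31 genes, where 17.2% of all genes had it. The 31 were called from the same GFP-positive libraries, so this is a description and no further support. For 21 of the 31 each APLpro library was above all 18 other GFP-positive libraries, and the share of all genes with this order was not counted. AT3G58720 had 217 ± 105 CPM (SD, n = 3) in APLpro nuclei, against 22.9 ± 2.36 CPM in the next population, NST3pro. GDH3 had 46.7 ± 8.22 CPM, followed by PXYpro nuclei of the proximal cambium and differentiating xylem with 20.6 ± 5.78 and SMXL5pro nuclei with 17.2 ± 4.87 CPM. NAKR1 had 178 ± 46.5 CPM, followed by PXYpro nuclei with 60.01 ± 18.6 CPM. The APLpro mean was more than 2 times that of the next GFP-positive population for 18 of the 31, a share not counted over all genes. PP2-A1 and KAN2 were among the genes that did not stand out in this way. PP2-A1 had 83.6 ± 11.8 CPM in APLpro and 77.1 ± 39.9 CPM in NST3pro nuclei, and KAN2 had 76.6 ± 24.7 CPM in APLpro and 66.4 ± 2.57 CPM in SMXL5pro nuclei, differences within the spread between replicates.

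When the 3 GFP-negative populations were included, 28 of the 31 genes still had their highest mean in APLpro GFP-positive nuclei. The other 3, AT4G00780, PWD and PP2-A1, were highest in the NST3pro GFP-negative nuclei, a mixture that includes phloem. There PP2-A1 had 184 ± 110.4 CPM, PWD 280.4 ± 268 CPM and AT4G00780 121 ± 45.7 CPM. In APLpro GFP-positive nuclei PWD had 186 ± 49.6 CPM and AT4G00780 115 ± 26.02 CPM. The SDs of the NST3pro GFP-negative values were larger than these 3 differences, and replicate 47 of that population held only 725545 reads. The APLpro GFP-negative nuclei had the lowest mean of the 10 populations for 8 of the 31 genes, for example 2.55 ± 0.325 CPM for GDH3 and 1.97 ± 0.742 CPM for AT5G55010. Shares over all genes were not counted for the 28 or the 8. The 31 had been called for high levels in the APLpro GFP-positive and low levels in its GFP-negative libraries, so both counts are description only.

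**Figure D5:**
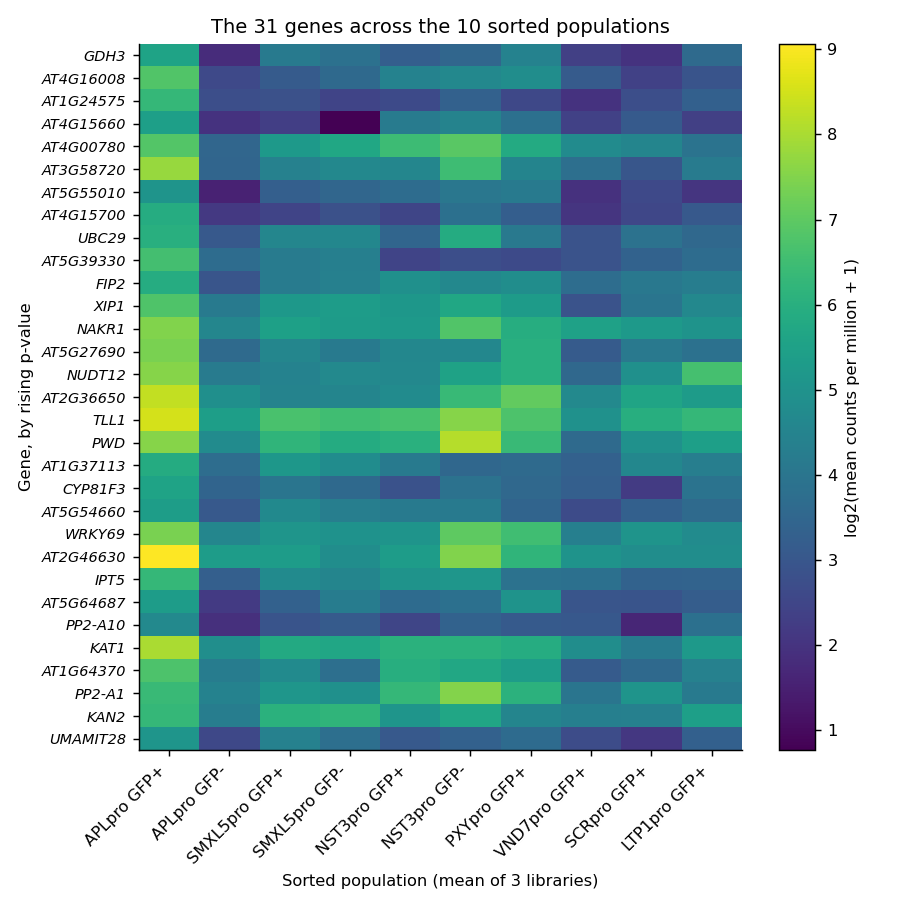
Colour gives log2(mean CPM + 1) over 3 libraries for the 31 genes (rows) in the 10 sorted populations (columns), all 30 libraries scaled together. The first column, APLpro GFP-positive nuclei, is the brightest for 28 of the 31 genes, with AT2G46630 the highest at a mean of 534 CPM.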

How the data were processed

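RNA of sorted nuclei was amplified by SMART-seq2, without molecular identifiers. The deposited raw read counts come from single-end reads that the authors passed through Cutadapt 2.3 and mapped to TAIR10 by STAR 2.5.0a, keeping unique hits. They cover the whole bodies of 37051 Araport11 genes, with the strand ignored. Hence antisense neighbours cannot be separated and near-identical copies lose reads. The GFP row was left out of library sizes and tests. The counts as deposited were tested with edgeR 4.0.16 in R 4.3.3 (glmQLFit, glmQLFTest, TMM scaling, filterByExpr), GFP-positive against GFP-negative libraries, 3 against 3, two-sided, with Benjamini-Hochberg adjustment at 0.05. Unadjusted p-values are named as such. Differences between lines were interaction contrasts in a fit of 18 libraries. CPM were scaled by TMM factors, and 1723839 to 18335693 reads per APLpro library limit precision at low levels. Some libraries of the other lines were shallower, with 725545 reads in NST3pro GFP-negative replicate 47 and 1039446 in SMXL5pro GFP-negative replicate 41. The tests were checked on simulated data. Alternatives were DESeq2 1.42.0, limma 3.58.1 voom, other scaling and filters, thinned counts and leaving out each library.

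The libraries, the genes and the gene lists, some of whose markers the study itself used, were chosen with earlier results of these data known, and the lists support nothing independently. All genes past the threshold are named, with values in every library for the 12 of lowest p and for list members that are APL, pass, or have an unadjusted p under 0.01; of lower genes, the 6 of lowest p at an average of at least 4 log2 CPM. Names, strands and sequences are from the RefSeq annotation of TAIR10.1, which matched 37051 identifiers.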

Additional observations from a re-analysis of the deposited data

Results flagged for a closer look

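The effect of the sort differed between lines, by a test of the difference itself, for 2 genes when the APLpro line was set against the SMXL5pro line and for 139 genes when it was set against the NST3pro line. In the first contrast TLL1 differed by 3.03 and AT3G58720 by 4.70 on the log2 scale, both larger in the APLpro line.

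In the second contrast 19 of the 31 genes differed, all with the larger log2 fold change in the APLpro line. The 31 had been called for high log2 fold changes in the same APLpro libraries, so this direction is no independent support. The differences in log2 fold change were AT3G58720 (6.34), AT2G46630 (5.81), AT4G15700 (5.70), UBC29 (5.47), AT2G36650 (4.99), PWD (4.91) and WRKY69 (4.80). They were smaller for GDH3 (4.75), AT1G24575 (4.65), NAKR1 (4.58), AT5G55010 (4.52), NUDT12 (4.47) and TLL1 (4.08). The smallest were those of AT4G00780 (4.05), AT5G27690 (4.05), AT5G39330 (3.56), XIP1 (3.35), KAT1 (3.29) and PP2-A1 (3.28).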

How the results depend on the processing

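With all 6 libraries kept, 31 genes passed with edgeR, and DESeq2 called 162, of which 31 were among the 31. Taking the spread from 18 libraries gave 17, of which 15 were among the 31. The other scalings and filters, thinning, protein-coding genes alone and limma voom gave 23 to 43. Leaving out 1 library gave 0 to 72 (edgeR). The contrast with the SMXL5pro line gave 2 genes, 0 with RLE size factors (589 at an unadjusted p under 0.05), 21 with DESeq2 and 0 to 7 when 1 of 18 libraries was left out. That with the NST3pro line gave 139, 85 with RLE, 1532 with DESeq2 and 13 to 1556 with 1 library left out. The cause was not tested. None of the 31 genes changed direction: of their 465 alternative values, 140 no longer passed and 0 reversed. Of the 31, 13 genes passed under every alternative that kept all 6 libraries. Named genes outside the 31 with values near 0 could change direction. The log2 fold change of AT4G15690 ranged from -0.19 to 0.25 when 1 library was left out. The difference in GFP CPM stayed between 19.7 and 33.4 when 1 library was left out. No paired analysis was possible because the labels give both populations different replicate numbers. In GFP-negative replicate 44, the shallowest of the 6 libraries, 3 reads correspond to 1.74 CPM before TMM scaling, so lower levels there could not be told from 0.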

Other observations

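Several of the 47 genes that DESeq2 called lower in GFP-positive nuclei have known functions that the report does not describe. They were chosen after their values were seen, and none passed with edgeR. SOBIR1, a co-receptor of receptor-like proteins, had 107, 79.4 and 65.6 CPM in the positive and 332, 262 and 167 CPM in the negative libraries (edgeR log2 fold change -1.60 ± 0.45 SE, adjusted p = 0.396, and DESeq2 adjusted p = 0.0106). LYK5, a receptor of the fungal wall component chitin, had 107, 113 and 61.2 CPM in the positive and 326, 322 and 207 CPM in the negative libraries (edgeR log2 fold change -1.60 ± 0.45 SE, adjusted p = 0.406, and DESeq2 adjusted p = 0.00908). MYB15, a transcription factor of defence lignin, had 28.5, 26.1 and 25.4 CPM in the positive and 75.8, 82.6 and 53.7 CPM in the negative libraries (edgeR log2 fold change -1.40 ± 0.33 SE, adjusted p = 0.258, and DESeq2 adjusted p = 0.0123). KCS20, which elongates fatty acids for cuticular wax, had 114, 88.9 and 70.03 CPM in the positive and 263, 379.5 and 193 CPM in the negative libraries (edgeR log2 fold change -1.61 ± 0.45 SE, adjusted p = 0.406, and DESeq2 adjusted p = 0.00809). In each of these genes all GFP-positive libraries were below all GFP-negative ones, an order found in 7.08% of all genes. The genes were picked from calls on the same 6 libraries, so this order is no further support.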
